A study of Mus musculus with 35 samples.

Results

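The 41 genes described here are interferon-stimulated genes and genes of MHC class I antigen presentation, measured in whole mouse aorta. They were chosen by symbol from the authors' deposited table of normalised expression, where all 41 were found among 14174 genes. All 41 passed the filter on low values, which left 14157 genes to test. By role they are 5 transcription factors and signalling proteins (Stat2, Irf1, Irf7, Irf9, Nlrc5), 5 sensors of foreign RNA or DNA (Ifih1, Ddx58, Dhx58, Zbp1, Eif2ak2), 18 effectors and regulators, 3 immunoproteasome subunits (Psmb8, Psmb9, Psmb10), 6 class I presentation genes (Tap1, Tap2, Tapbp, B2m, H2-K1, H2-D1) and 4 interferon-inducible GTPases (Gbp2, Gbp3, Igtp, Irgm1).

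RNA was taken from 35 aortas of C57BL/6 mice, cut out from root to iliac bifurcation after perfusion and freed of surrounding fat, per the labels. The genotypes were wild type (WT), mice without apolipoprotein E (EKO), which develop atherosclerosis, and mice that lack apolipoprotein E and also overexpress human apolipoprotein A-I, which carries cholesterol in high-density lipoprotein (EKO/hA-I). EKO and EKO/hA-I thus share the Apoe deletion, and what drives the human transgene is not given in the sources used here. Mice were 8 weeks old when a diet of chow or Western type (WD) began, and 14 or 30 weeks old when aortas were taken after 6 or 22 weeks of it. Of the 12 groups 11 held 3 libraries, and the EKO/hA-I group with 6 weeks of chow held 2.

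Interferons are cytokines released by infected or activated cells. Type I interferons act through a receptor that switches on a complex holding STAT2 and IRF9, which binds the interferon-stimulated response element (ISRE) in the promoters of its targets, while interferon gamma acts mainly at the gamma-activated site (GAS). The immunoproteasome cuts proteins into peptides, the TAP transporter carries these into the endoplasmic reticulum, and class I molecules, built from a heavy chain and beta-2 microglobulin, show them to CD8 T cells.

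Promoters of 33 of the 41 genes were found by symbol in RefSeq sequences of build GRCm38.p6, as windows of 300 bases from 250 before to 50 after the start of the gene. Dhx58, Usp18, Rtp4, Parp9, Parp14, Zbp1, Tap2 and Nlrc5 had no entry. The letters GAAANNGAAA, a core of the ISRE, were searched on both strands and occurred in 15 of the 33 genes (45.5%), against 3.99% of 27025 genes in the whole promoter table. The letters TTCNNNGAA of the GAS, also searched on both strands, occurred in 8 of the 33 (24.2%), against 9.55% of all genes, and in 2 promoters of these genes a match of one overlapped a match of the other. By role, the ISRE letters occurred in 4 of 4 GTPases, 3 of 3 sensors, 6 of 14 effectors, 1 of 4 transcription factors, 1 of 5 class I presentation genes and 0 of 3 immunoproteasome genes in the table. A match of letters describes the window and is no evidence of binding. Only these exact letters were counted, so a window without them can still hold another form of the element.

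The 4 promoters below show these differences. Capitals mark the exact ISRE letters on either strand, and other forms of the element are not marked or counted. Isg15 (chr4:156200769-156201068, minus strand) held 3 overlapping matches, Ifit3 (chr19:34583279-34583578, plus strand) held 2, B2m (chr2:122147437-122147736, plus strand) held 1, and H2-D1 (chr17:35262844-35263143, plus strand), the gene with the smallest adjusted p of the 41 in aortas of EKO mice after 22 weeks of WD, held 0.
Isg15: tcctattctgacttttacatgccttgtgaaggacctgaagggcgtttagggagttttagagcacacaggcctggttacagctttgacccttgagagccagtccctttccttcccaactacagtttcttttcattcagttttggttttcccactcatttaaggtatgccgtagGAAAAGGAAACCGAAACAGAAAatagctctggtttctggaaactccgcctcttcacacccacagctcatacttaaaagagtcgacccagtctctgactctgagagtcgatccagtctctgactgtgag
Ifit3: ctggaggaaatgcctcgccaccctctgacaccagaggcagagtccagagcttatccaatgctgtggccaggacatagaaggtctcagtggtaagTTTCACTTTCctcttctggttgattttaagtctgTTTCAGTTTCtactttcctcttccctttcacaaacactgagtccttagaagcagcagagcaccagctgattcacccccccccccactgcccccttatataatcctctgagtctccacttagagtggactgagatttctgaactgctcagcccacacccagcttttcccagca
B2m: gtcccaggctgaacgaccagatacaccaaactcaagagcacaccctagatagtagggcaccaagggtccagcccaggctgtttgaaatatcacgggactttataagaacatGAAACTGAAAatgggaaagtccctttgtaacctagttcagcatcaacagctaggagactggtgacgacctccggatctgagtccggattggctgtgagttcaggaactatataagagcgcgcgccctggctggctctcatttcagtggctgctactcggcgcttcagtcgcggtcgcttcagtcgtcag
H2-D1: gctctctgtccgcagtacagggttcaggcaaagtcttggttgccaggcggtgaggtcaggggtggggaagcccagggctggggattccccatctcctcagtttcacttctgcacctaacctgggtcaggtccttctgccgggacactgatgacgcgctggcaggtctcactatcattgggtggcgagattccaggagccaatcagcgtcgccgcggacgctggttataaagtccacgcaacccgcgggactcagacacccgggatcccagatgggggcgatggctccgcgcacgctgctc

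Levels are the authors' normalised values, whose columns add to similar totals. From the smallest step between its values, a library was inferred to rest on 6.85 to 25.33 M reads (median 15.05 M). In the 12 WT libraries Apoe lay between 416 and 1276, and in the other 23 between 5.37 and 29.7, so it parts the genotypes as the titles do but cannot tell EKO from EKO/hA-I. Smooth muscle markers summed to between 4171 and 39190 in a library and endothelial markers to between 906 and 2960. Brown adipocyte markers summed to between 1430 and 14960, in aortas that the labels describe as freed of surrounding fat. The library titled WT WD 22 weeks replicate 3 carries the genotype tag EKO, and was kept as WT by its title, which its Apoe level matches. Y-linked transcripts are called missing where the mean of 4 such genes lay below 10, as in 12 libraries. That mean was at most 1.33 in these, not always 0, and at least 38.2 in the others. Values of 3 libraries are given in the order of replicates 1 to 3. Differences are log2 fold changes of value plus 1 with their standard error, from a limma fit of all 12 groups, and a gene is said to rise or fall where the Benjamini-Hochberg adjusted p over 14157 genes is below 0.05. Nothing ties the replicate numbers to shared animals. Each p-value sets a difference of group means against a spread between libraries that was estimated over all 12 groups.

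**Figure D1:**
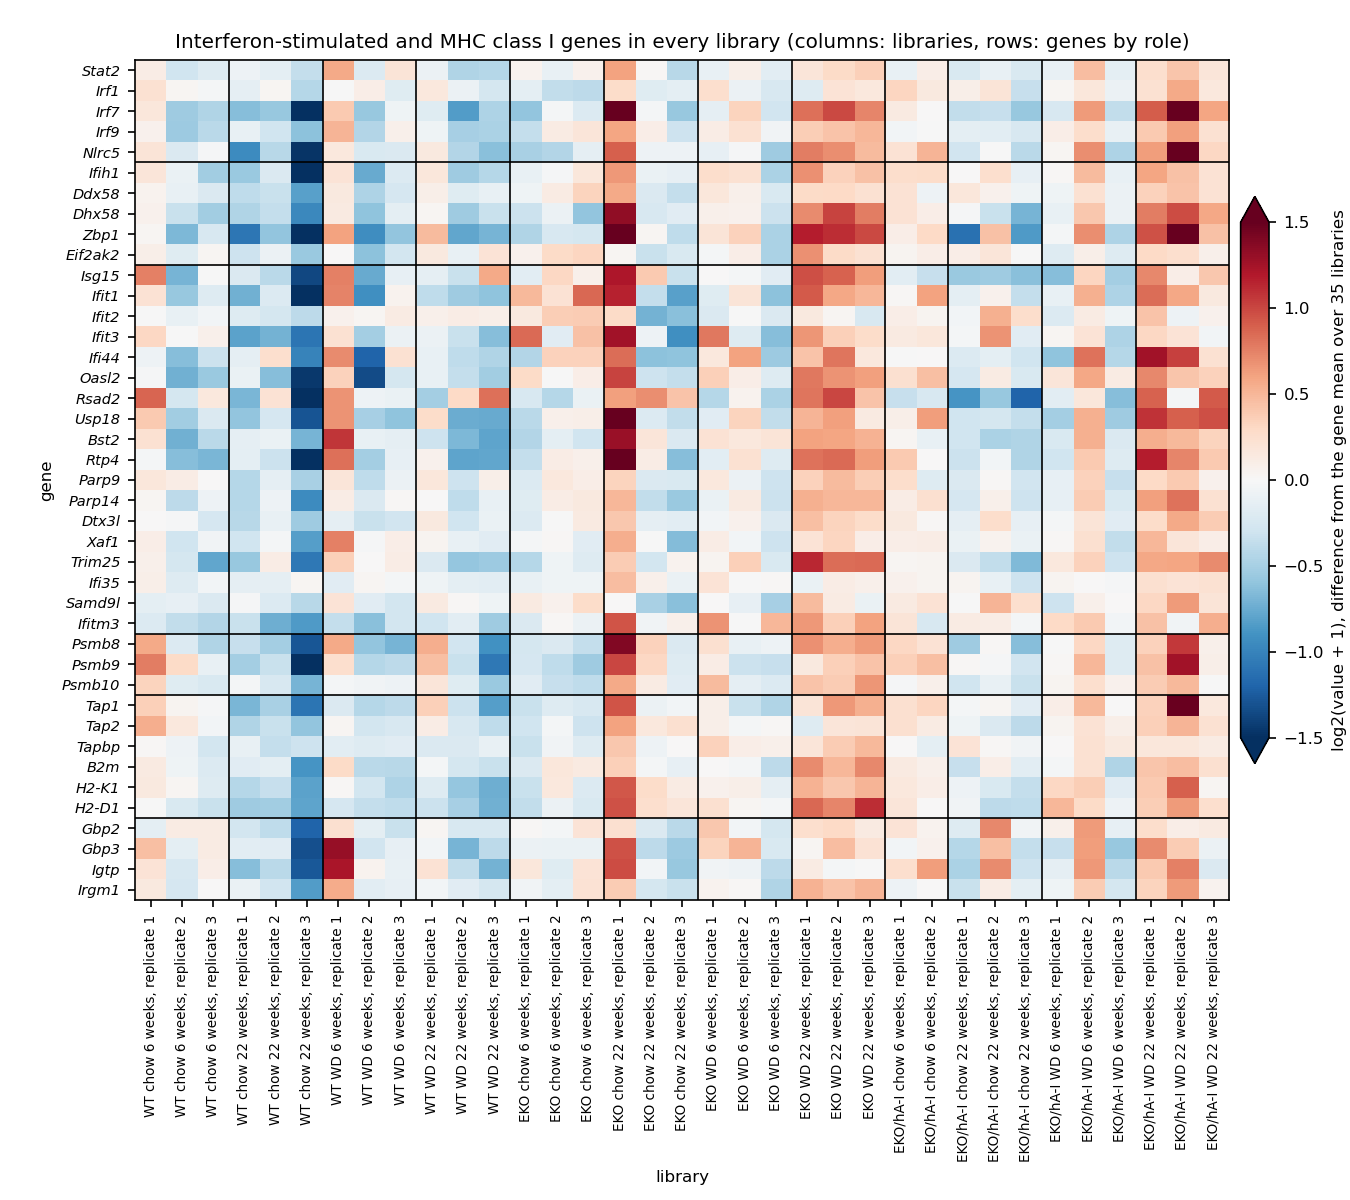
Each column is a library and each row one of the 41 genes, ordered by role. Colour gives log2(value + 1) minus the mean of that gene over the 35 libraries. The 3 EKO libraries on WD for 22 weeks and those of EKO/hA-I on WD for 22 weeks are mostly red, EKO chow 22 weeks replicate 1 is the reddest column (median difference 0.65) and WT chow 22 weeks replicate 3 the bluest (-0.94).

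After 22 weeks of WD, interferon-stimulated and class I genes were higher in EKO than in WT aortas. Of the 41 genes 20 rose and 0 fell, where 14.8% of all genes tested rose and 7.2% fell. The log2 fold change was positive for 40 of 41, with a median of 0.72. For 31 of 41 genes every EKO library lay above every WT library, against 23.7% of all genes tested. The rises were found in 4 of 5 transcription factors, 2 of 5 sensors, 8 of 18 effectors, 1 of 3 immunoproteasome subunits, 4 of 6 class I presentation genes and 1 of 4 GTPases.

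Of the 41 genes H2-D1, a classical class I heavy chain, had the smallest p. It stood at 564, 501 and 429 in WT, 1291, 1178 and 1526 in EKO and 912, 1104 and 844 in EKO/hA-I. The 3 EKO libraries lay above all others of the 3 groups, and EKO exceeded WT by 1.42 ± 0.18, adjusted p = 1.29e-06. H2-K1, the other classical heavy chain, stood at 480.5, 368 and 331 in WT, 792, 728 and 787 in EKO and 722, 1028 and 564 in EKO/hA-I. No WT library reached either of the other genotypes, and the rise from WT to EKO was 0.98 ± 0.22, adjusted p = 0.00127. B2m, the light chain that every class I molecule shares, stood at 532, 450.0 and 432 in WT, 886, 767 and 892 in EKO and 724, 746 and 643 in EKO/hA-I. WT was lowest, EKO/hA-I lay between and EKO was highest, without overlap, and EKO exceeded WT by 0.85 ± 0.21, adjusted p = 0.0038. Tapbp, the tapasin that helps peptides onto class I molecules, rose as well, from 189, 189 and 204 in WT to 248, 286 and 306 in EKO (0.53 ± 0.12, adjusted p = 0.0019). Heavy chain genes resemble one another closely, so reads can be split between H2-D1, H2-K1 and their relatives.

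In peptide supply, Tap1, a subunit of the peptide transporter, stood at 39.7, 24.6 and 17.0 in WT, 35.4, 49.1 and 45.0 in EKO and 39.6, 88.1 and 34.6 in EKO/hA-I. WT replicate 1 lay inside the EKO range, and the difference between EKO and WT was 0.72 ± 0.29, adjusted p = 0.0759. Its partner Tap2 differed by 0.23 ± 0.15, adjusted p = 0.298. Psmb8, an immunoproteasome subunit that replaces a constitutive one, stood at 43.2, 23.9 and 15.2 in WT, 47.9, 43.5 and 46.3 in EKO and 37.8, 62.6 and 31.2 in EKO/hA-I, with WT replicate 1 just under the lowest EKO library (0.84 ± 0.38, adjusted p = 0.115). Psmb9, whose promoter faces that of Tap1 on the opposite strand, stood at 19.4, 10.8 and 6.08 in WT, 15.5, 18.1 and 19.1 in EKO and 19.3, 34.8 and 14.8 in EKO/hA-I. WT replicate 1 exceeded all 3 EKO libraries, and the difference was 0.63 ± 0.35, adjusted p = 0.222. Psmb10, the remaining subunit, was the one that passed (0.67 ± 0.20, adjusted p = 0.0169). T and NK cell markers summed to 337.8, 127.1 and 5.45 in WT replicates 1 to 3 and to between 19.9 and 28.6 in EKO. Within WT these sums had the same order as Psmb8, Psmb9 and Tap1. Their part in the result was not tested. Without WT replicate 1, Psmb8 (adjusted p = 0.0288), Psmb9 (0.0481) and Tap1 (0.0148) passed. This was the only 1 of the 6 fits without 1 library in which they did. In the others adjusted p reached 0.478 for Psmb8, 0.721 for Psmb9 and 0.388 for Tap1 (limma). With all libraries kept, Tap1 passed with a term for brown fat markers (0.0493).

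Among transcription factors, Irf7, which amplifies type I interferon production, stood at 17.8, 10.9 and 14.4 in WT, 36.6, 41.1 and 34.3 in EKO and 38.8, 67.2 and 31.2 in EKO/hA-I. All WT libraries were below those of the other genotypes, and EKO exceeded WT by 1.34 ± 0.45, adjusted p = 0.034. Stat2, a component of the ISRE-binding complex, stood at 47.6, 36.9 and 37.6 in WT, 57.9, 62.2 and 65.2 in EKO and 60.8, 68.1 and 57.8 in EKO/hA-I, and WT was again apart (0.60 ± 0.20, adjusted p = 0.0282). Irf9, its partner in that complex, rose by 0.78 ± 0.21 (adjusted p = 0.00933). Nlrc5, the transactivator of class I genes, stood at 23.4, 15.3 and 13.4 in WT, 36.7, 34.9 and 29.6 in EKO and 33.2, 78.2 and 26.5 in EKO/hA-I. Its WT libraries were the lowest of the 9, and the rise in EKO was 0.95 ± 0.33, adjusted p = 0.0376. Irf1, induced mainly by interferon gamma, did not pass. It stood at 57.6, 48.3 and 42.8 in WT, 45.0, 59.5 and 57.9 in EKO and 60.4, 76.9 and 57.6 in EKO/hA-I. WT and EKO overlapped, with 0.12 ± 0.17, adjusted p = 0.654 between them.

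Of the sensors, Zbp1, which binds Z-form nucleic acid, stood at 7.14, 2.40 and 2.61 in WT, 12.2, 11.6 and 10.6 in EKO and 10.3, 20.8 and 6.94 in EKO/hA-I. EKO lay above WT in all libraries, at the edge of the threshold (1.43 ± 0.52, adjusted p = 0.0498). After rescaling by median ratios Zbp1 did not pass (limma, adjusted p = 0.0524). Ddx58, the RNA sensor RIG-I, stood at 39.0, 32.2 and 33.9 in WT, 44.7, 45.4 and 43.0 in EKO and 46.8, 49.5 and 42.8 in EKO/hA-I. Here too the WT libraries were lowest, but the difference did not pass (0.34 ± 0.18, adjusted p = 0.21). Dhx58, the related LGP2, rose from 8.38, 5.35 and 6.30 in WT to 14.0, 17.6 and 14.6 in EKO (1.11 ± 0.29, adjusted p = 0.00684). Ifih1 (MDA5) differed by 0.75 ± 0.29, adjusted p = 0.0609, and Eif2ak2, the RNA-activated kinase PKR, by 0.32 ± 0.16, adjusted p = 0.165.

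Trim25, the ubiquitin ligase that activates RIG-I, had the largest rise of the 18 effectors. It stood at 54.4, 42.1 and 43.0 in WT, 140.3, 114 and 115 in EKO and 95.5, 96.3 and 104 in EKO/hA-I (1.39 ± 0.24, adjusted p = 7.08e-05). Bst2, or tetherin, which holds budding virus at the cell surface, stood at 42.8, 33.1 and 30.4 in WT, 81.9, 81.0 and 77.0 in EKO and 78.4, 75.2 and 67.6 in EKO/hA-I. Its EKO libraries differed little among themselves and lay well above WT (1.17 ± 0.30, adjusted p = 0.00584). Oasl2, of the oligoadenylate synthetase family, stood at 23.2, 19.3 and 17.2 in WT, 44.0, 40.5 and 39.1 in EKO and 41.8, 33.7 and 32.2 in EKO/hA-I, again with WT apart (1.02 ± 0.34, adjusted p = 0.0327). Isg15, the ubiquitin-like protein attached to other proteins after interferon, stood at 9.05, 7.75 and 15.3 in WT, 20.5, 19.4 and 16.1 in EKO and 17.3, 10.9 and 13.6 in EKO/hA-I. WT replicate 3 came within a narrow gap of the lowest EKO library, and the difference did not pass (0.79 ± 0.38, adjusted p = 0.149). Ifit3, whose family binds viral RNA, stood at 27.0, 22.7 and 18.1 in WT, 46.2, 37.2 and 34.9 in EKO and 36.0, 33.3 and 28.1 in EKO/hA-I. WT was apart from EKO, yet the gene did not pass either (0.79 ± 0.38, adjusted p = 0.144). Ifit3 did pass in a limma fit of the compared groups alone (adjusted p = 0.0187). Of the 15 risen genes with a promoter entry 6 held the ISRE letters, and of the 18 others 9 did. The remaining effectors that rose were Ifitm3, which blocks virus entry (log2 fold change 0.86, adjusted p = 0.00354), Rtp4 (1.27, 0.0331), Ifit1 (1.17, 0.0414), Parp14 (0.66, 0.0345) and Dtx3l (0.44, 0.0385). Ifi44 (0.78), Usp18, the brake on interferon receptor signalling (0.83), Rsad2, the antiviral enzyme viperin (0.54), Parp9 (0.42), Xaf1 (0.29), Ifi35 (0.15) and Samd9l (0.13) did not pass. Ifit2 alone had a negative log2 fold change (-0.11, adjusted p = 0.728).

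Of the interferon-inducible GTPases, which act on vacuoles that hold pathogens, Irgm1 stood at 29.1, 26.5 and 24.6 in WT, 43.4, 40.4 and 42.8 in EKO and 37.9, 47.1 and 31.0 in EKO/hA-I, and EKO lay above WT in all libraries (0.64 ± 0.22, adjusted p = 0.0356). Gbp2 stood at 45.8, 38.0 and 37.8 in WT, 53.9, 55.5 and 49.6 in EKO and 54.4, 48.3 and 49.3 in EKO/hA-I. Its WT libraries lay below those of EKO by a margin that did not pass (0.38 ± 0.24, adjusted p = 0.281). Gbp3 (0.61) and Igtp (0.32) did not pass. Gbp genes, like Ifit genes, have close relatives, so values can be shared between copies.

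**Figure D2:**
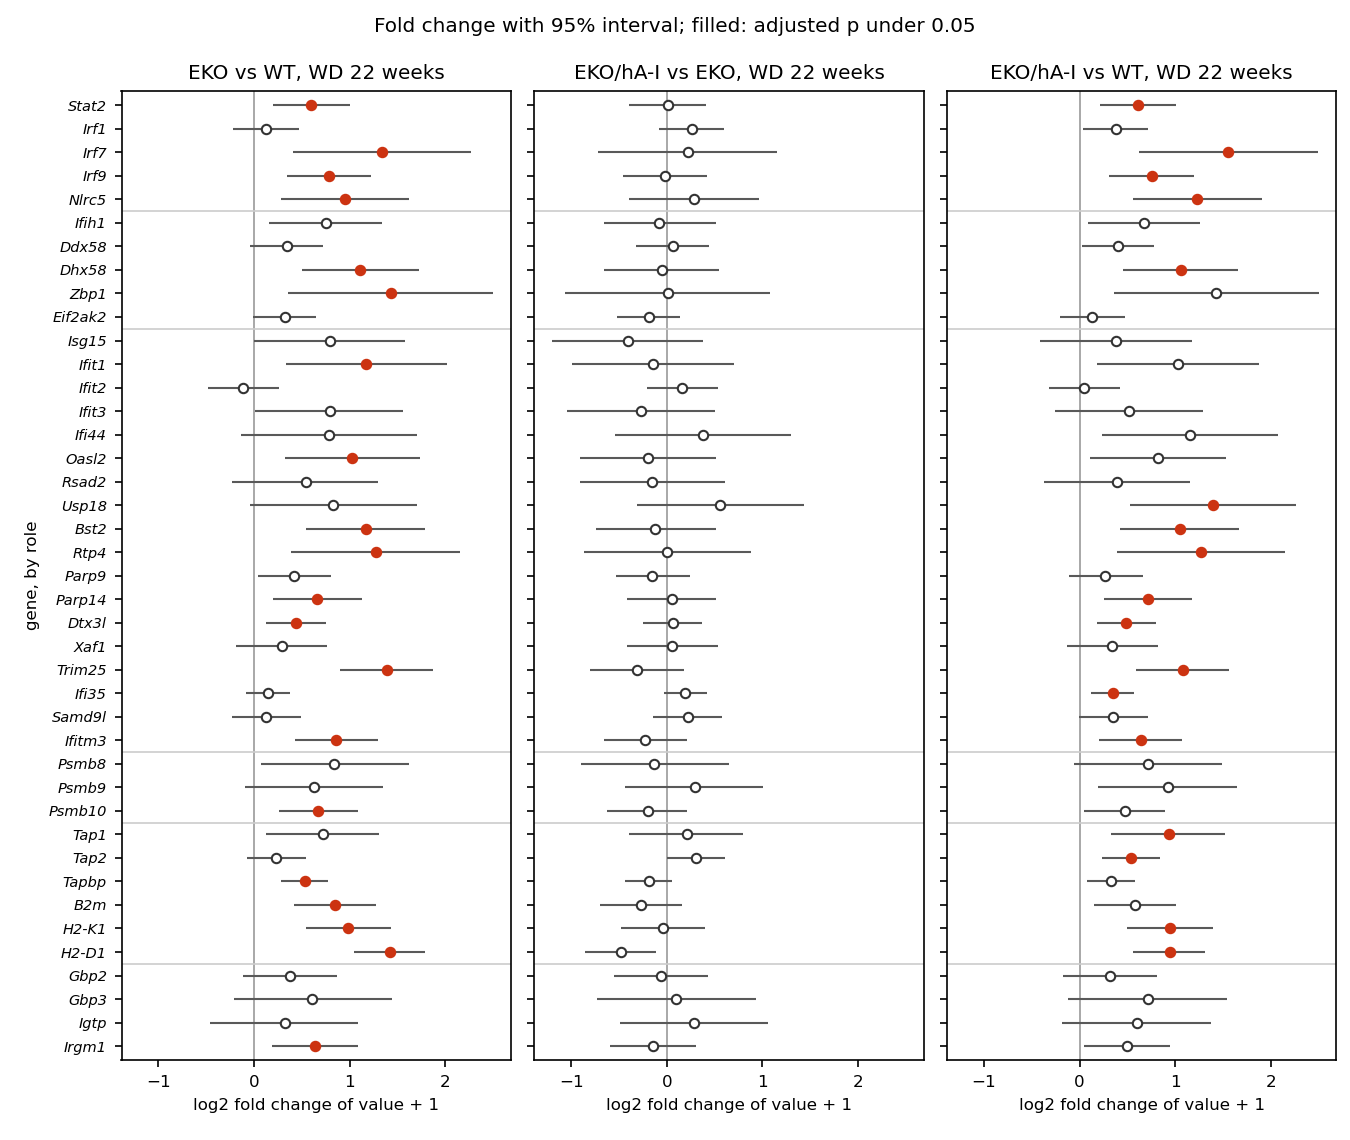
Points are log2 fold changes of value plus 1 for the 41 genes on WD at 22 weeks and lines their 95% intervals, with 3 libraries in each group; filled points have an adjusted p below 0.05. In the left panel (EKO against WT) 20 points are filled, in the middle panel (EKO/hA-I against EKO) 0 are, and in the right panel (EKO/hA-I against WT) 17 are.

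These calls rested on single libraries to different degrees. H2-D1, H2-K1, B2m, Tapbp, Trim25 and Bst2 passed in each of the 6 fits that left out 1 library of the EKO or WT group on WD at 22 weeks. Stat2 passed in 2 of the 6, and Irf7, Nlrc5, Zbp1, Oasl2 and Irgm1 in 1 of the 6 (adjusted p up to 0.174). The count of 20 became 10 without WT replicate 2, 9 without WT replicate 3, 11 without EKO replicate 1, 10 without EKO replicate 2, 9 without EKO replicate 3 and 23 without WT replicate 1. Calls over all genes tested became fewer as well. With all libraries 2095 genes rose and 1019 fell. In these 6 fits, in the order named, 2414, 2294, 2674, 2588, 2365 and 2868 passed in either direction.

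Other genes of the interferon pathway were counted in the same comparison, where 14.8% of all genes tested rose and 7.2% fell. Of 19 receptors, kinases, sensors and regulators upstream, 12 rose and 0 fell in EKO. Those of smallest p were Socs3, an inhibitor of cytokine signalling (log2 fold change 3.13 ± 0.30, adjusted p = 8.57e-09), Irf5, an interferon factor of myeloid cells (2.75 ± 0.30, 7.9e-08), Tmem173, the DNA-sensing adaptor STING (1.66 ± 0.21, 9.32e-07), and Irf8, a myeloid lineage factor (2.90 ± 0.44, 1.57e-05). Of 41 further induced genes that could be tested, 14 rose and 0 fell, with Oas1a (2.60 ± 0.43, adjusted p = 4.64e-05), Mnda, Lgals3bp and Ifi204 of smallest p. Of 15 other genes of class I loading and peptide processing 5 rose and 1 fell. The nonclassical heavy chains H2-M3 (0.92 ± 0.17, adjusted p = 0.000168) and H2-T23 (1.22 ± 0.23, 0.000275) and the chaperones Calr (0.85 ± 0.17) and Canx (0.58 ± 0.12) were among the risen.

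Markers of macrophages and of other cell types moved in the same comparison. The summed level of 11 macrophage markers lay between 391 and 781 in WT and between 6554 and 9405 in EKO. Of the 11 markers 10 rose, and all 11 were above 0 in the libraries of both groups. Smooth muscle sums were lower in EKO (6107 to 10210 against 15840 to 26080 in WT). Fibroblast sums were higher (6542 to 8549 against 3060 to 4418). So were endothelial (2067 to 2215 against 1118 to 1413) and neutrophil sums (47.0 to 74.2 against 13.8 to 22.6). Sums of the other cell type lists overlapped. In whole aorta, more cells of a type and more RNA per cell cannot be told apart. The part of these cell types in the rise of the 41 genes was not tested.

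EKO/hA-I was set against EKO on the same diet and duration to ask what the transgene changes in the diseased aorta. After 22 weeks of WD, 0 of the 41 genes passed in EKO/hA-I against EKO, and 1 had an unadjusted p below 0.05, where 5.96% of all genes tested rose and 12.9% fell (limma). The log2 fold change was positive for 20 and negative for 21, with a median of -0.02. In 4 genes every EKO/hA-I library lay below every EKO library, against 22.8% of all genes tested, and these were Trim25, Tapbp, B2m and H2-D1. In 3 genes, Tap2, Ifi35 and Usp18, every EKO/hA-I library lay above every EKO library, against 17.8% of all genes tested. H2-D1 had the smallest p, with -0.48 ± 0.18, adjusted p = 0.0645 and a 95% interval from -0.86 to -0.11.

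The other representatives of each role had log2 fold changes between -0.41 and 0.29, and intervals that hold 0 do not show that the genotypes were alike. H2-K1 differed by -0.04 (95% interval -0.48 to 0.40), B2m by -0.27 (-0.70 to 0.16), Tap1 by 0.21 (-0.39 to 0.80), Psmb8 by -0.13 (-0.90 to 0.65) and Psmb9 by 0.29 (-0.44 to 1.01). Among transcription factors the difference was 0.22 for Irf7 (-0.72 to 1.15), 0.01 for Stat2 (-0.39 to 0.41), 0.28 for Nlrc5 (-0.39 to 0.96) and 0.26 for Irf1 (-0.08 to 0.60). The sensors Ddx58 and Zbp1 differed by 0.06 (-0.32 to 0.44) and 0.01 (-1.06 to 1.08). Effectors gave -0.41 for Isg15 (-1.20 to 0.38), -0.27 for Ifit3 (-1.04 to 0.50), -0.20 for Oasl2 (-0.91 to 0.51) and -0.12 for Bst2 (-0.74 to 0.51). The GTPases Gbp2 and Irgm1 gave -0.06 (-0.55 to 0.43) and -0.14 (-0.59 to 0.31). EKO/hA-I replicate 2 was the highest of its group for 23 of the 41 genes, among them Tap1, Nlrc5, Zbp1, Psmb9, Irf7 and Psmb8 in the values above, and its B cell markers summed to 289 against 14.6 and 8.72 in replicates 1 and 3; their part in the result was not tested. Leaving out any 1 library kept the count at 0. With libraries paired by number in a replicate block, H2-D1 passed as lower in EKO/hA-I (limma, -0.48, adjusted p = 0.0353).

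Of the 19 upstream genes 7 fell and 0 rose in this comparison, where 12.9% of all genes tested fell and 5.96% rose. Those of smallest p were the interferon gamma receptor chain Ifngr2 (-1.14 ± 0.21, adjusted p = 0.000347), Socs3 (-1.52 ± 0.30, 0.000547), Irf5 (-1.40 ± 0.30, 0.00141) and Mb21d1, the DNA sensor cGAS (-0.81 ± 0.20, 0.00631). Of the 41 further induced genes 1 fell (Ube2l6, a conjugating enzyme for Isg15, -0.89 ± 0.30, adjusted p = 0.041) and 0 rose. In peptide loading Pdia3 (-0.63 ± 0.14), Canx (-0.52 ± 0.12) and Calr (-0.68 ± 0.17) fell, and the heavy chain H2-Q7 rose (1.48 ± 0.46, adjusted p = 0.0273). Macrophage markers summed to between 1084 and 2419 in EKO/hA-I against 6554 to 9405 in EKO, and 9 of 11 fell while 1 rose. Skeletal muscle markers rose in 6 of 8 cases and brown adipocyte markers in 3 of 8. Fibroblast sums were lower in EKO/hA-I (2175 to 3805 against 6542 to 8549 in EKO). So were erythroid sums (1349 to 6846 against 8941 to 13910). The part of these markers in the result was not tested.

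Set directly against WT at the same time and diet, EKO/hA-I aortas were compared for the same 41 genes. The log2 fold change was positive for 41 of 41, with a median of 0.64, and 17 rose while 0 fell, where 8.51% of all genes tested rose and 9.46% fell. In 29 of 41 genes all EKO/hA-I libraries lay above all WT libraries, against 23.4% of all genes. The 4 of smallest p were H2-D1 (0.94 ± 0.18, adjusted p = 0.0024), Trim25 (1.08 ± 0.24, adjusted p = 0.0044), H2-K1 (0.94 ± 0.22, adjusted p = 0.00549) and Nlrc5 (1.23 ± 0.33, adjusted p = 0.0131), all with the values given above. For B2m the difference was 0.58 ± 0.21, adjusted p = 0.0539. H2-D1 and Trim25 passed in each fit that left out 1 library of these groups, H2-K1 in 5 of 6 (not without EKO/hA-I replicate 2, adjusted p = 0.054) and Nlrc5 in 3 of 6. The count fell to 3 without WT replicate 2, 3 without WT replicate 3, 3 without EKO/hA-I replicate 2 and 10 without EKO/hA-I replicate 1, and to 4 with a term for brown fat markers. Calls over all genes tested fell too. With all libraries and no such term 1205 genes rose and 1339 fell. In these 5 fits, in the order named, 996, 1205, 887, 1716 and 871 passed in either direction. Macrophage markers rose in 9 of 11 cases here. Smooth muscle sums were lower than in WT without overlap (4171 to 10090 against 15840 to 26080). So were erythroid sums (1349 to 6846 against 7536 to 17700). Skeletal muscle (863 to 2933 against 26.1 to 455), brown adipocyte, endothelial and neutrophil sums were higher without overlap. The part of these markers in the result was not tested. This comparison and the preceding ones share libraries.

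**Figure D3:**
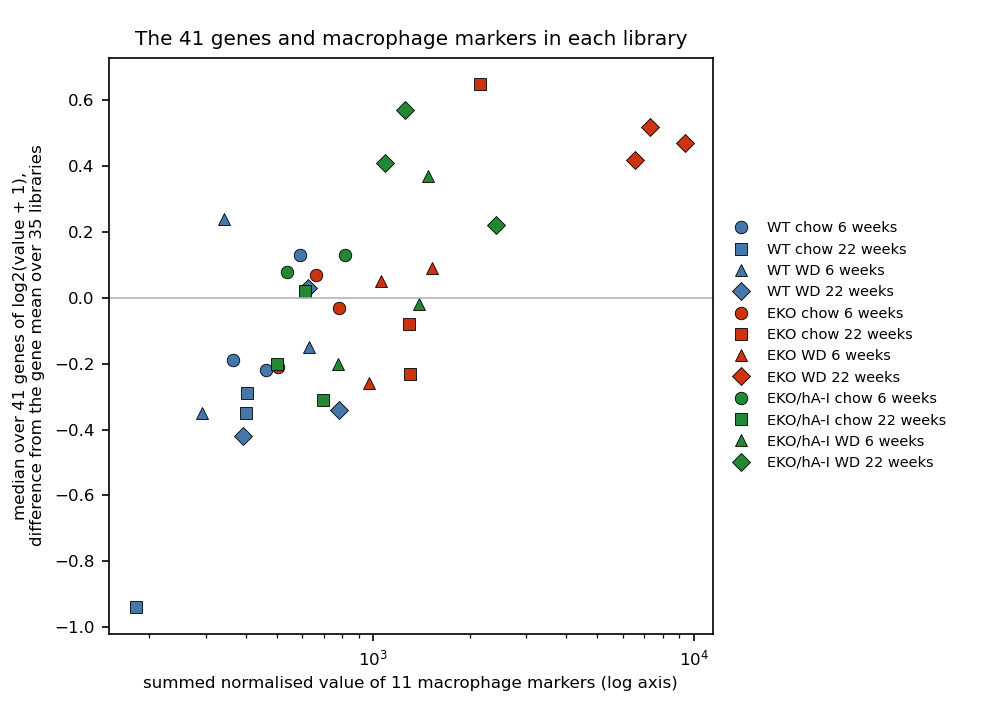
Each point is a library, with the summed level of 11 macrophage markers on a log axis against the median over the 41 genes of the difference from the gene mean. EKO and EKO/hA-I libraries on WD for 22 weeks have overlapping medians (0.42 to 0.52 and 0.22 to 0.57) at macrophage sums of 6554 to 9405 and 1084 to 2419.

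On chow for 22 weeks EKO again exceeded WT, and the count depended on single libraries. Of the 41 genes 14 rose and 0 fell, where 7.35% of all genes rose and 7.94% fell, and the median log2 fold change was 0.72. H2-D1 stood at 1374, 841 and 803 in EKO against 489.5, 492 and 410.4 in WT (1.08 ± 0.18, adjusted p = 0.000365). Tap2 stood at 126, 92.6 and 97.6 against 60.0, 65.4 and 54.5 (0.79 ± 0.15, adjusted p = 0.00104). In both, all EKO libraries lay above WT and EKO replicate 1 was the highest. Ifitm3 stood at 207, 104 and 113 against 84.9, 64.2 and 59.3 (0.96 ± 0.21, adjusted p = 0.00337) and H2-K1 at 1057, 670.1 and 600.3 against 409.6, 435 and 317 (0.97 ± 0.22, adjusted p = 0.00367). Of 11 macrophage markers 10 rose here as well (sums of 1290 to 2145 in EKO and 182 to 404 in WT), as did 5 of 5 erythroid and 4 of 7 fibroblast markers, while 2 of 7 cardiac muscle markers fell, and their part in the result was not tested. The other 10 genes that rose were Nlrc5, Tap1, Rsad2, Zbp1, Psmb9, Irf7, Psmb8, Ifih1, Tapbp and Dhx58.

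EKO chow 22 weeks replicate 1 was the highest of its group for 40 of the 41 genes, against 31.9% of all genes. Irf7 stood at 101, 19.9 and 13.3 in the 3 libraries, Bst2 at 132, 60.5 and 45.7 and Usp18 at 27.3, 6.86 and 5.99. In all 3 genes replicate 1 stood far above the other libraries of its group. Its macrophage markers summed to 2145, against 1290 and 1305 in replicates 2 and 3, and it lacks Y-linked transcripts, as does replicate 2. Without it the count fell from 14 to 2, H2-D1 and Tap2 still passed, and Ifitm3 (adjusted p = 0.0527) and H2-K1 (0.0549) did not. The count was 24 without EKO replicate 3, 4 without WT replicate 3 and 0 in a fit of these 2 groups alone, in which 11 of 13639 genes passed in all. Over all genes 746 passed without EKO replicate 1, 1639 without EKO replicate 3 and 1738 without WT replicate 3. With all libraries 1041 rose and 1124 fell.

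EKO/hA-I was also compared with EKO on chow at 22 weeks. Of the 41 genes 5 fell and 2 rose, shares no higher than among all genes, of which 14.9% fell and 13.7% rose, and the median was -0.25 with 35 of 41 negative. H2-D1 stood at 680.4, 537 and 545 in EKO/hA-I (-0.74 ± 0.18, adjusted p = 0.00514), below all EKO libraries. Rsad2 stood at 12.6, 16.0 and 9.93 against 37.6, 39.8 and 33.0 in EKO, also without overlap (-1.47 ± 0.37, adjusted p = 0.00573). Tap2 (-0.56 ± 0.15, adjusted p = 0.00816), H2-K1 (-0.67) and Bst2 (-0.82) fell too. Samd9l, a growth and virus restriction factor, went the other way, with 52.5, 75.5 and 63.2 against 53.0, 37.3 and 33.9 (0.62 ± 0.18, adjusted p = 0.011), and so did Ifit2 (0.60), both with overlapping groups. Without EKO replicate 1 the count of 7 became 3, and H2-D1 (adjusted p = 0.0517) and Tap2 (0.0613) no longer passed. It became 4 without EKO/hA-I replicate 2 or without replicate 3, and 1 with a term for brown fat markers, 5 of 8 of which fell here. Macrophage markers fell in 6 of 11 cases and erythroid markers in 4 of 5. Smooth muscle sums were higher in EKO/hA-I without overlap (22210 to 33870 against 11260 to 15600 in EKO). So were fibroblast sums (5495 to 8461 against 2584 to 3895). The part of these markers in the result was not tested. Y-linked transcripts were missing from 2 of the 3 EKO libraries and 0 of the 3 EKO/hA-I libraries, and with a term for this the count was 5 (2 higher and 3 lower) in place of 7.

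At 6 weeks few of the 41 genes passed between genotypes. On WD 1 of 41 genes rose and 0 fell in EKO against WT, where 3.94% of all genes rose and 1.5% fell, with a median of 0.06. That gene was Ifitm3, with 171, 107 and 152 in EKO and 83.9, 69.0 and 88.4 in WT (0.81 ± 0.21, adjusted p = 0.025). All EKO libraries exceeded WT, but the call was lost without WT replicate 1 or 2 or EKO replicate 1 or 3, in a fit of these groups alone and with a brown fat term. On chow 0 of 41 passed and 2 had an unadjusted p below 0.05 (4.97% of all genes passed, limma), with a median of 0.04. Tap2 had the smallest p (-0.43 ± 0.15, adjusted p = 0.0815) and passed without WT replicate 3 (0.0258). EKO/hA-I against EKO gave 0 of 41 on WD, with 0 at an unadjusted p below 0.05 (0.0706% of all genes passed), a median of 0.06 and Tap1 of smallest p (0.43 ± 0.29, adjusted p = 0.96). On chow, with 2 EKO/hA-I libraries, it gave 0 of 41 and 2 at an unadjusted p below 0.05 (0.0777% of all genes passed), a median of 0.15 and Irf1 of smallest p (0.54 ± 0.19, adjusted p = 0.253). There, 19 genes had both EKO/hA-I libraries above every EKO library, against 19.4% of all genes, and 1 had both below (16.5%).

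The gap between EKO and WT on WD was then compared between 22 and 6 weeks. This difference of differences was positive for 41 of 41 genes, with a median of 0.68, and 2 of 41 passed higher and 0 lower, where 5.87% of all genes passed higher and 2.77% lower (limma). Trim25 passed with 1.49 ± 0.33, adjusted p = 0.0056: its EKO libraries went from 65.2, 81.4 and 53.8 at 6 weeks to 140.3, 114 and 115 at 22 weeks, and its WT libraries from 81.5, 63.4 and 68.5 to 54.4, 42.1 and 43.0. EKO lay above its own earlier level and WT below it, without overlap in either. H2-D1 passed with 1.01 ± 0.26, adjusted p = 0.0139, from 838, 724 and 692 in EKO and 596, 554 and 544 in WT at 6 weeks to the values given above. At 6 weeks too the 3 EKO libraries of H2-D1 exceeded WT, by 0.41 ± 0.18, adjusted p = 0.181. Both genes passed in each fit that left out 1 of the 12 libraries, while the count rose to 5 without WT WD 6 weeks replicate 2.

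**Figure D4:**
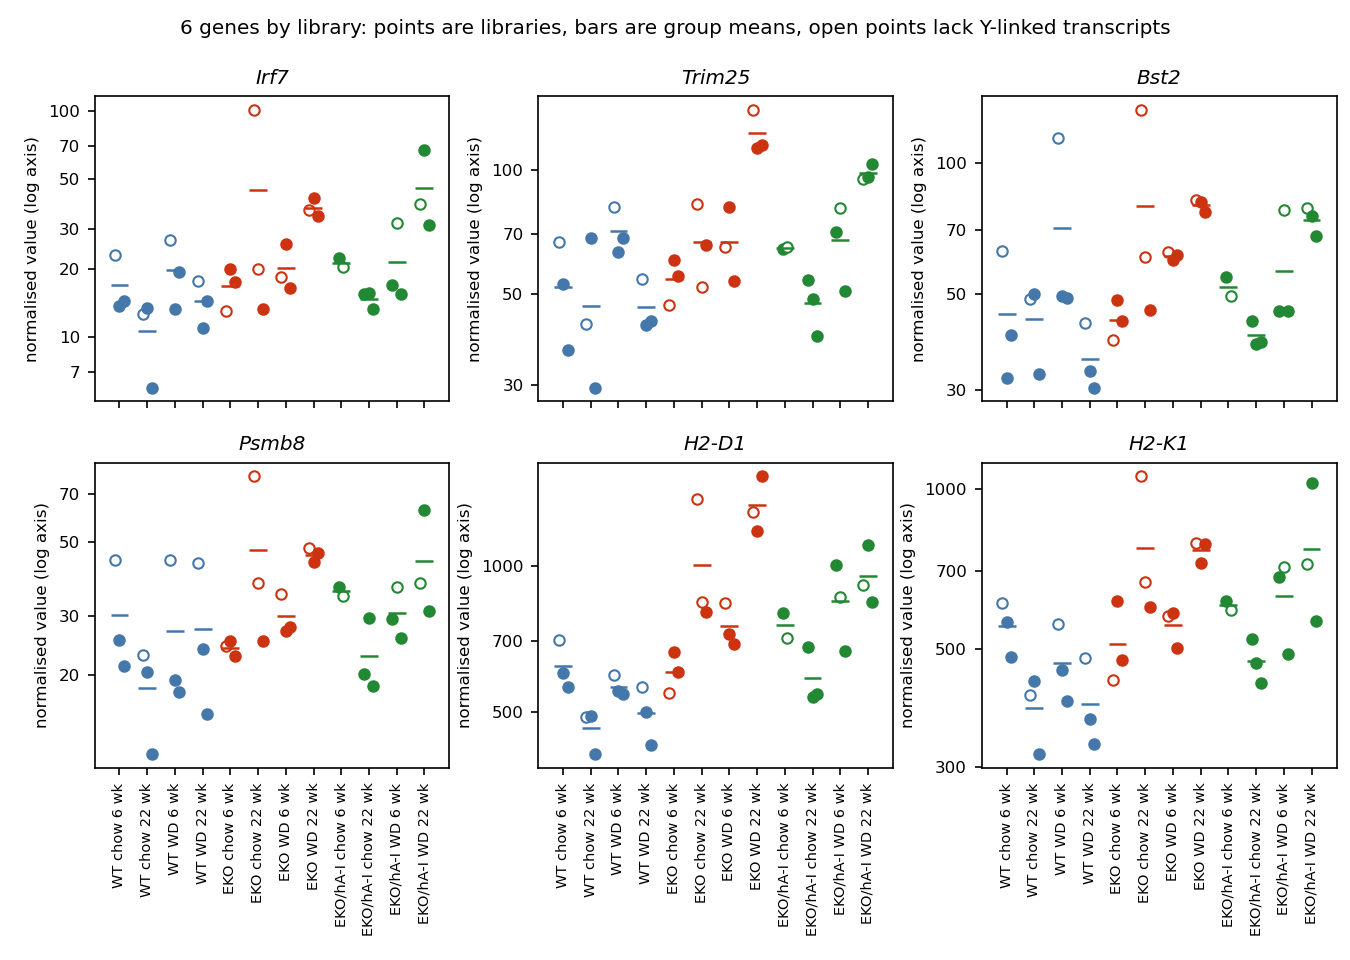
Points are libraries, bars group means and the axes logarithmic, with 12 groups from left to right for 6 genes; open points are libraries without Y-linked transcripts. EKO on WD for 22 weeks has the highest group mean for Trim25 (114 to 140.3) and H2-D1 (1178 to 1526), and for Irf7 EKO chow 22 weeks replicate 1 stands at 101.2 above all other libraries.

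Within EKO on WD, 5 of 41 genes rose from 6 to 22 weeks and 0 fell, where 10.5% of all genes rose and 2.97% fell, with a median of 0.48 and 40 of 41 positive. For 27 genes every library of 22 weeks lay above every library of 6 weeks (19.5% of all genes), and for 0 below (10.2%). The 4 of smallest p were H2-D1 (0.82 ± 0.18, adjusted p = 0.00231), Trim25 (0.88 ± 0.24, adjusted p = 0.0115), B2m (0.78 ± 0.21, adjusted p = 0.0118) and Eif2ak2 (0.53 ± 0.16, adjusted p = 0.0268). B2m stood at 545, 531 and 412 at 6 weeks and Eif2ak2 at 30.0, 32.9 and 21.7, below all 3 libraries of 22 weeks (49.6, 37.5 and 35.9 for Eif2ak2). Dhx58 was the other riser (0.89, adjusted p = 0.0436). H2-D1 kept its call in each of the 6 fits without 1 library, but not in a fit of these groups alone (adjusted p = 0.0501). Without EKO WD 6 weeks replicate 3 the count was 1, and without EKO WD 22 weeks replicate 1 it was 2. Macrophage markers rose in 10 of 11 cases over the same interval. Smooth muscle sums went from between 12670 and 27380 to between 6107 and 10210. Fibroblast sums went from between 4160 and 6479 to between 6542 and 8549, and neutrophil and B cell sums were also higher at 22 weeks. The part of these markers in the result was not tested. In WT on WD 0 of 41 passed and 4 had an unadjusted p below 0.05 (6.68% of all genes passed, limma), with a median of -0.07. Bst2 had the smallest p, at 114, 49.5 and 48.8 at 6 weeks and 42.8, 33.1 and 30.4 at 22 weeks (-0.87 ± 0.30, adjusted p = 0.0779). At 6 weeks replicate 1 stood far above the other libraries. Bst2 passed with libraries paired by number in a replicate block (adjusted p = 0.0478), and without WT WD 6 weeks replicate 2 the count was 1. In EKO/hA-I on WD 0 of 41 passed and 10 had an unadjusted p below 0.05 (0.0706% of all genes passed, limma), with 40 of 41 positive and a median of 0.33. Usp18 had the smallest p there, at 5.37, 12.1 and 5.24 and then 18.3, 15.8 and 16.7 (1.15 ± 0.42, adjusted p = 0.158).

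On chow, in EKO 3 of 41 genes rose and 2 fell from 6 to 22 weeks, where 13.3% of all genes rose and 13.7% fell, with a median of 0.23. H2-D1 rose from 549, 664 and 606 (0.69 ± 0.18, adjusted p = 0.00815) and Tap2 from 67.0, 80.9 and 66.4 (0.55 ± 0.15, adjusted p = 0.00965). Ifit2 fell from 27.3, 32.2 and 32.3 to 30.3, 14.7 and 15.6 (-0.65 ± 0.18, adjusted p = 0.0104), with replicate 1 still inside the earlier range, and Samd9l from 57.9, 55.3 and 64.0 to 53.0, 37.3 and 33.9 without overlap (-0.53 ± 0.18, adjusted p = 0.0285). H2-K1 also rose (0.57, adjusted p = 0.0494). Macrophage marker sums went from between 503 and 781 at 6 weeks to between 1290 and 2145 at 22 weeks (6 of 11 markers rose) and smooth muscle sums from between 25540 and 31700 to between 11260 and 15600 (1 of 8 fell), while 5 of 8 brown adipocyte markers rose, and their part in the result was not tested. The count of 5 became 1 without EKO chow 6 weeks replicate 3, 2 without EKO chow 22 weeks replicate 1, and 1 with a brown fat term. In WT on chow 0 of 41 passed (0.12% of all genes did, limma), although 40 of 41 were negative, 13 had an unadjusted p below 0.05 and the median was -0.37. Tap2 had the smallest p, at 121, 92.2 and 80.1 and then 60.0, 65.4 and 54.5 (-0.68 ± 0.15, adjusted p = 0.0548), and passed without WT chow 6 weeks replicate 3 (0.0433) or WT chow 22 weeks replicate 2 (0.0349). For 14 genes every library of 22 weeks lay below every library of 6 weeks (6.15% of all genes), and for 0 above (5.41%). WT chow 22 weeks replicate 3 was the lowest of its group for 39 of 41 genes. In EKO/hA-I on chow 0 of 41 passed and 1 had an unadjusted p below 0.05 (0.00706% of all genes passed, limma), with a median of -0.28 and Tap2 of smallest p (-0.41 ± 0.17, adjusted p = 0.394). For 23 genes all libraries of 22 weeks lay below the 2 of 6 weeks (21.5% of all genes), and for 0 above (16.1%).

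Diet was compared within each genotype. In EKO/hA-I at 22 weeks 17 of 41 genes were higher on WD than on chow and 0 lower, where 20.7% of all genes were higher and 17.5% lower, with a median of 0.59 and 40 of 41 positive. Trim25 went from 54.2, 48.7 and 39.5 on chow to 95.5, 96.3 and 104 on WD (1.05 ± 0.24, adjusted p = 0.0021), and Rsad2 to 45.5, 23.7 and 46.8 on WD from the chow values given above (1.48 ± 0.37, adjusted p = 0.00389). Tap2 (0.59 ± 0.15, adjusted p = 0.00417) and Dhx58 (1.13 ± 0.29, adjusted p = 0.00504) followed, in all 4 without overlap. H2-D1 (0.70), Nlrc5 (1.16), Irf7 (1.49), Ifi35 (0.35), Parp14 (0.71), Zbp1 (1.61), H2-K1 (0.66), Usp18 (1.29), Bst2 (0.86), Irf9 (0.59), Dtx3l (0.41), Psmb10 (0.53) and Isg15 (0.98) were the others. Markers of neighbouring tissue moved strongly here: skeletal muscle markers rose in 8 of 8 cases, brown adipocyte markers in 6 of 8 and macrophage markers in 7 of 11, while 7 of 8 smooth muscle markers fell. With a term for brown fat markers 0 of the 17 passed, with Trim25 at an adjusted p of 0.374, and over all genes 2 of 14157 passed. The count was 7 without EKO/hA-I chow 22 weeks replicate 3 or EKO/hA-I WD 22 weeks replicate 2 and 11 without EKO/hA-I chow 22 weeks replicate 1.

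In EKO at 22 weeks 4 of 41 were higher on WD and 0 lower, where 13.9% of all genes were higher and 4.8% lower, with a median of 0.32. Trim25 went from 82.7, 52.1 and 65.8 on chow to the WD values above (0.89 ± 0.24, adjusted p = 0.00944) and Eif2ak2 from 31.3, 24.1 and 26.0 (0.57 ± 0.16, adjusted p = 0.0139), both without overlap. Samd9l (0.53 ± 0.18, adjusted p = 0.0333) and Parp14, a mono-ADP-ribosyltransferase (0.65 ± 0.23, adjusted p = 0.0458), passed with overlapping groups. Macrophage markers rose in 10 of 11 cases (sums of 1290 to 2145 on chow and 6554 to 9405 on WD). Smooth muscle sums were 11260 to 15600 on chow and 6107 to 10210 on WD with 0 of 8 markers passing. Fibroblast sums (2584 to 3895 on chow and 6542 to 8549 on WD) and endothelial sums (1369 to 1919 and 2067 to 2215) were higher on WD without overlap. The part of these markers in the result was not tested. The count was 16 without EKO chow 22 weeks replicate 1, 0 without EKO chow 22 weeks replicate 2 or EKO WD 22 weeks replicate 1, 1 without EKO chow 22 weeks replicate 3 and 2 without EKO WD 22 weeks replicate 2. Over all genes 2091, 2119, 1403, 1768 and 2762 passed in these fits, in the order named. With all libraries 1964 were higher and 680 lower. In WT at 22 weeks 0 of 41 passed and 4 had an unadjusted p below 0.05 (1.36% of all genes passed, limma), with a median of 0.31 and Eif2ak2 of smallest p (0.40 ± 0.16, adjusted p = 0.209). At 6 weeks the diet gave 0 of 41 in WT, with 1 at an unadjusted p below 0.05 (1.43% of all genes passed, limma) and Tap2 of smallest p (-0.38 ± 0.15, adjusted p = 0.185). It gave 0 of 41 in EKO, with 5 at an unadjusted p below 0.05 (0.0848% of all genes passed) and Tapbp of smallest p (0.37 ± 0.12, adjusted p = 0.1), and 0 of 41 in EKO/hA-I, with 0 at an unadjusted p below 0.05 (0.00706% of all genes passed) and again Tapbp (0.20 ± 0.13, adjusted p = 1). Medians at 6 weeks were -0.02, 0.01 and -0.08. Whether the gap between EKO and WT at 22 weeks differed between diets was tested directly: 0 of 41 passed and 2 had an unadjusted p below 0.05 (6.21% of all genes passed, limma), with a median of 0.01 and Tap2 of smallest p (-0.56 ± 0.21, adjusted p = 0.118), and a count of 1 without WT chow 22 weeks replicate 3. Whether the gap between EKO/hA-I and EKO on WD differed between durations gave 0 of 41 and 1 at an unadjusted p below 0.05 (5.12% of all genes passed, limma), with H2-D1 of smallest p (-0.64 ± 0.26, adjusted p = 0.169).

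Within groups the libraries without Y-linked transcripts were often the highest for these genes. In 9 groups exactly 1 of the 3 libraries lacked them. That library was replicate 1 in all of these groups but EKO/hA-I WD 6 weeks, where it was replicate 2. Lack of these transcripts and replicate number can thus hardly be told apart here. Over these groups that library was the highest of the 3 in 228 of 369 cases of a gene in a group (61.8%), against 35.5% over all genes tested. Oasl2 was highest in that library in 9 of 9 groups and Ifit3 in 8 of 9. Irgm1, Bst2, Isg15, Gbp3, Ifih1, Psmb8 and Psmb10 were so in 7 of 9, and 16 of the 41 genes in at least 6 of 9, against 7.14% of all genes. Groups differed: 39 of 41 genes were highest there in WT chow 6 weeks, 39 in EKO/hA-I WD 6 weeks, 37 in WT WD 6 weeks and 35 in WT WD 22 weeks, but 6 in EKO chow 6 weeks and 14 in WT chow 22 weeks. Oasl2 on WD at 6 weeks shows it: the WT library without these transcripts stood at 32.0 and the others at 9.30 and 20.7, and the EKO/hA-I library without them stood at 38.0 and the others at 28.5 and 27.3. These are counts of ranks in small groups, given without a test. With a term for such libraries in the fit, the count after 22 weeks of WD was 21 in place of 20 for EKO over WT, and 23 in place of 17 for EKO/hA-I over WT.

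Over all 35 libraries Zbp1 ranged from 0.578 to 22.3, Irf7 from 5.97 to 101, Usp18 from 2.69 to 27.3, Ifi44 from 1.33 to 11.8, Rtp4 from 2.82 to 39.0 and Ifit1 from 2.67 to 22.99. Ifi35 ranged from 23.5 to 40.9, Stat2 from 36.9 to 77.7, Irf1 from 38.0 to 76.9, Tapbp from 170.3 to 306, Dtx3l from 22.0 to 48.1, Ifit2 from 14.7 to 36.2 and Samd9l from 33.9 to 82.8. Among further members Irf9 ranged from 22.4 to 54.0, Ifih1 from 5.71 to 29.5, Gbp3 from 12.6 to 82.7, Igtp from 10.2 to 62.1, Xaf1 from 6.46 to 21.4, Parp9 from 23.4 to 46.7 and Psmb10 from 17.9 to 47.3. Trim25 ranged from 29.6 to 140.3, Ifitm3 from 59.3 to 207, Rsad2 from 7.19 to 49.4, Parp14 from 24.4 to 84.6, Dhx58 from 3.72 to 22.2, Eif2ak2 from 19.6 to 49.6, Tap2 from 54.5 to 126 and H2-D1 from 410.4 to 1526. By chromosome 8 of the 41 lie on chromosome 17, namely Eif2ak2 and the 7 genes H2-D1, H2-K1, Psmb8, Psmb9, Tap1, Tap2 and Tapbp.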

How the data were processed

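RNA-seq of 35 mouse aortas was used as deposited: the authors' table gives 1 normalised signal per gene and library, neither whole counts nor stated to be scaled in a known way. Per the submitters' processing notes, Bowtie 0.12.2, Bowtie2 and RSEM were used and the builds mm8 and mm9 are named; which step used which is not given in the sources used here. Column totals lay between 907491.9 and 1137737, and 18 to 222 genes were at 0 in a library. The step between low values (up to 1.5) gave whole reads within 0.02 reads for 71.6% to 82.1% of them, too few for a count test, so depth is approximate.

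Groups came from the titles. The genotype tag of 1 library went against its title, which was followed. Values were transformed to log2(value + 1), genes with at least 1 in at least 3 libraries were kept (17 removed), and limma 3.58.1 in R 4.3.3 (robust, with trend) was fitted over all 12 groups, for 21 comparisons of 2 groups and 3 differences of differences. Adjusted p is Benjamini-Hochberg over all genes, with a threshold of 0.05. The method was tested on simulated data.

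The members and lists were chosen with earlier results of these data known. Named were up to 4 called members of smallest p per comparison (otherwise the member of smallest p), representatives of each role on WD at 22 weeks, and up to 4 called genes of smallest p per pathway list; other members are given briefly. Alternatives were a replicate block, a pseudocount of 5, no filter on low values, a brown fat term, rescaling by median ratios, a term for the 12 libraries that lack Y-linked transcripts, a fit of the compared groups alone and leaving out each library.

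No label says that replicate numbers mark shared animals or batches. Deviations of same-numbered libraries correlated above 0.1 in every pair in 3 of the 21 comparisons, those of 22 with 6 weeks in WT on WD (0.13 to 0.34), in EKO on WD (0.12 to 0.44) and in EKO/hA-I on chow (0.28 to 0.35, 2 pairs). Promoter sequences are RefSeq's, of build GRCm38.p6.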

Additional observations from a re-analysis of the deposited data

Results flagged for a closer look

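On WD, the gap between EKO and WT differed between 22 and 6 weeks for 2 of the 41 genes by a direct test of that difference in limma, both with the larger gap at 22 weeks, a share below the 5.87% of all genes that passed in that direction. For Trim25 the difference of log2 fold changes was 1.49 ± 0.33 (adjusted p = 0.0056), and for H2-D1 it was 1.01 ± 0.26 (adjusted p = 0.0139).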

How the results depend on the processing

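Over 24 comparisons and 7 settings other than leaving out a library, the count of called genes stayed within 1.5 times in 145 of 168 cases and moved in 23; the cause was not tested. With the replicate block the count was 1 in place of 0 after 22 weeks of WD for EKO/hA-I against EKO and for 22 against 6 weeks in WT on WD and on chow, 9 in place of 5 in EKO on chow, and 4 in place of 2 for the difference of EKO and WT by duration. Psmb8 (adjusted p = 0.0388) and Tap1 (0.0495) also passed with the block for EKO against WT after 22 weeks of WD. With the brown fat term it was 0 for EKO against WT on WD at 6 weeks, 1 for EKO/hA-I against EKO on chow at 22 weeks, 4 for EKO/hA-I against WT, 7 and 0 for WD against chow at 22 weeks in EKO and EKO/hA-I, and, over time, 5 in WT on chow, 11 in EKO on WD and 1 in EKO on chow. With the term for libraries without Y-linked transcripts it was 1 over time in WT on WD and on chow, and 5 for the difference by duration. In fits of the compared groups alone, which have fewer samples, it was 0 for EKO against WT on WD at 6 weeks and on chow at 22 weeks, 2 for EKO/hA-I against EKO on chow at 22 weeks, 1 for WD against chow in EKO at 22 weeks, 11 and 1 over time in EKO on WD and on chow, and 5 for the difference by duration.

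Leaving out 1 library gave 9 to 23 for EKO against WT on WD at 22 weeks, 0 to 1 on WD at 6 weeks, 2 to 24 on chow at 22 weeks and 0 to 1 on chow at 6 weeks. It gave 3 to 9 for EKO/hA-I against EKO on chow at 22 weeks and 3 to 19 for EKO/hA-I against WT. For WD against chow at 22 weeks it gave 0 to 16 in EKO and 7 to 19 in EKO/hA-I. Over time it gave 0 to 1 in WT on WD and on chow, 1 to 5 in EKO on WD and 1 to 7 in EKO on chow, and for the differences of EKO and WT 0 to 1 by diet and 2 to 5 by duration. Where a group keeps 2 libraries, they are assumed to vary like the other groups.

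With 3 libraries a group and depths known only by inference, genes of low level such as Zbp1 and Ifi44 have wide intervals. Related class I, Ifit and Gbp genes share sequence, and how their reads were divided is not given in the sources used here.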
